A study of Mus musculus with 6 samples.

Results

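The genes described here are 40 genes of DNA replication and mitosis, chosen by gene symbol from the 19390 symbols of the count table, with 17 assigned to S phase and 23 to G2 and mitosis (G2/M). All 40 had a row, and all 40 had enough counts to be tested among the 12810 genes tested. They were measured by RNA sequencing of γδ T cells, a minor lymphocyte lineage with a γδ antigen receptor, sorted from the spleens of 6-week-old mice. The 3 WT-labelled libraries stand for mice with floxed USF3 alleles (USF3-f/f), and the 3 KO-labelled libraries for USF3-f/f; CD2-cre mice, in which a transgene drives Cre recombinase from regulatory elements of the CD2 gene in lymphoid cells. Both labels share the floxed alleles, and the transgene and the floxed deletion cannot be told apart. The sources used here do not say whether each library is 1 animal, so p-values measure the spread between these libraries, which may be technical. They also do not say whether the cells were cultured after the sort.

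A dividing cell licenses replication origins with the MCM helicase, copies its DNA in S phase with a supply of deoxynucleotides, and then separates the copies in mitosis under the control of cyclin B and its kinase CDK1. Most genes of both steps are switched on and off with the cycle: many S-phase genes through E2F transcription factors, and many G2/M genes through a promoter sequence called the cell cycle genes homology region (CHR), which the MuvB complexes bind. Resting T cells make little of these messages, and T cells that divide make much. In a bulk library, fewer cells in a phase and less RNA per cell cannot be told apart.

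Values by library are listed in the order of the labels' numbers, 1 to 3. Libraries held 34644862 to 35806402 counts, and the 40 genes took 1.31% to 1.35% of them. The counts of Usf3, the targeted gene, were 2499, 2527 and 2593 in the WT and 2532, 2360 and 2348 in the KO libraries. Its log2 fold change of -0.076 ± 0.0433 (SE) missed the threshold (edgeR adjusted p = 0.261) and KO1 was inside the range of the WT libraries. The position of the loxP sites is not given, so whole-gene counts do not check the deletion, and libraries are called by their labels. The T cell genes Cd3d, Cd3e and Cd3g were abundant, at mean levels of 286, 346 and 382 CPM in WT (CPM, counts scaled to a fixed library size after TMM scaling). Of 10 listed γδ T cell markers 6, among them Trdc, were not analysed here, and the other 4 summed to 15 to 16.4 CPM, with members that changed in opposite directions as given below, so the γδ identity was not checked by its defining genes.

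The promoters of the S and G2/M genes differed in the sequence motifs they held. The genes were chosen by symbol and not by motif. Many genes of each phase are known for control through E2F or CHR, so the difference is not independent of the choice. Promoter windows of 300 bases, from 250 bases before to 50 after the start, were found in RefSeq's GRCm38.p6 annotation for 33 of the 40 genes, 15 in S and 18 in G2/M; Aurkb, Ccna2, Ccne2, Kif20a, Mcm4, Stmn1 and Tpx2 were not matched. An E2F motif (TTTCCCGC, TTTGGCGC, TTTCGCGC or TTTGCCGC, on either strand) stood in 6 of 15 S windows (40%) and in 1 of 18 G2/M windows (5.56%, Cdk1), beside 4.83% of the 10079 tested genes with a window. A CHR motif (TTTGAA or TTCGAA, on either strand) stood in 14 of 18 G2/M windows (77.8%) and 2 of 15 S windows (13.3%), beside 17.0%. These matches are a description of letters in a window. The CCAAT box, which the factor NF-Y binds, stood in 16 of 18 G2/M windows (88.9%), 8 of 15 S windows (53.3%) and 42.9% of the tested genes. The E-box CACGTG, the motif bound by upstream stimulatory factors, was in the window of 1 member, Tyms, and in 11.4% of the tested genes. TTCGAA and CACGTG read alike on both strands, and E2F matches on opposite strands can share bases. In the 100 bases before the start alone, the shares fell to 1 of 15 S windows (6.67%) for E2F and 7 of 18 G2/M windows (38.9%) for CHR, beside 1.80% and 4.84% of the tested genes.

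The 200 bases before the start are shown for 4 genes, 5′ to 3′ on the gene's strand, because each changed between labels and holds the motif of its phase. E2F motifs are in capitals in Mcm5 and Mcm6, and CHR motifs in Top2a and Bub1b.
Mcm5, chr8:75109309-75109508, plus strand: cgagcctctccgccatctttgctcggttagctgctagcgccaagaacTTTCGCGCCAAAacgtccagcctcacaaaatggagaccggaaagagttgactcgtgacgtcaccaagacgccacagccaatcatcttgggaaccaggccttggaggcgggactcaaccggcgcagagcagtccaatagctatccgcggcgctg
Mcm6, chr1:128359706-128359905, minus strand: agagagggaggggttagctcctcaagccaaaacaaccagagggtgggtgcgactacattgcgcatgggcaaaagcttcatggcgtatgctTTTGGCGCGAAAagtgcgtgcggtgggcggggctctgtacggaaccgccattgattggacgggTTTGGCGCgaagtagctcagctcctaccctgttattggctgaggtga
Top2a, chr11:99024190-99024389, minus strand: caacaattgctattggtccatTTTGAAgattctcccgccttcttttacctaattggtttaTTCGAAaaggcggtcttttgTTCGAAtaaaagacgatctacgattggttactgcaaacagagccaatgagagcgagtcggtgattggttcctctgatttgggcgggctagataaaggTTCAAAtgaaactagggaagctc
Bub1b, chr2:118598011-118598210, plus strand: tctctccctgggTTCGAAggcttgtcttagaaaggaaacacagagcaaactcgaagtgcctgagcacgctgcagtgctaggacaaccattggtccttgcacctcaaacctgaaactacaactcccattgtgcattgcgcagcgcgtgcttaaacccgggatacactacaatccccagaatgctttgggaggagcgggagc
Mcm5 and Mcm6 encode subunits of the same helicase and both hold E2F motifs, at 153 and 149 bases before the start in Mcm5, where the matches on opposite strands overlap, and at 110, 106 and 47 in Mcm6. Top2a holds 4 CHR motifs and Bub1b 1 in these bases. As given below, Mcm5 and Bub1b were higher and Mcm6 and Top2a lower in KO-labelled libraries, so the direction differed within each pair.

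**Figure D1:**
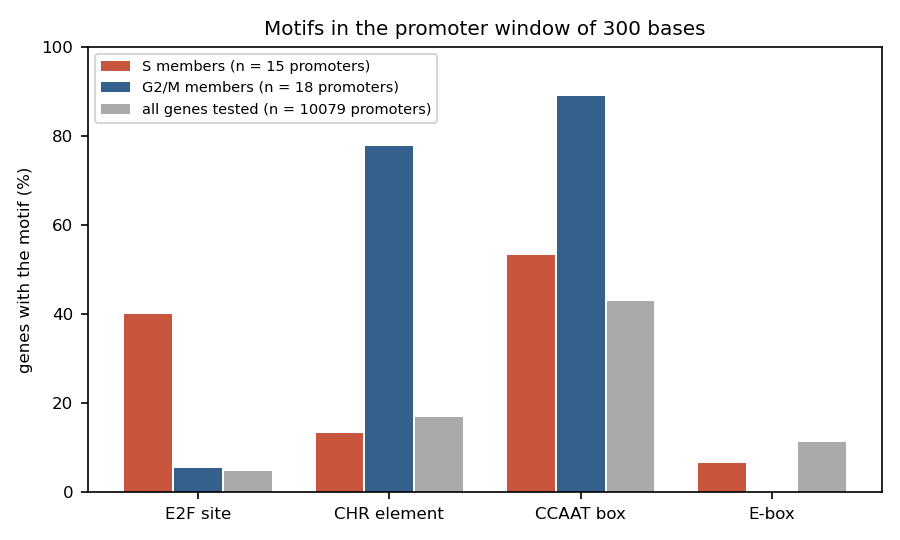
Percent of genes whose promoter window of 300 bases holds each motif, for S members, G2/M members and all tested genes with a window. E2F sites are in 40% of S and 5.56% of G2/M windows, and CHR elements in 13.3% of S and 77.8% of G2/M windows.

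In WT-labelled cells the division genes were among the most abundant messages of the library. Levels between genes are given as FPKM, the authors' counts scaled by gene length and library total, with 1 fixed length per gene. The median was 102 FPKM over the 17 S genes and 74.9 over the 23 G2/M genes, beside 6.55 over all tested genes. By mean WT FPKM, 33 of the 40 lay at or above the 90th percentile of all 19390 genes and 23 at or above the 95th, and the lowest, Ccne2, lay at the 72.4th. Mki67, whose protein Ki-67 marks cells outside the resting state, stood at 156, 157 and 155 FPKM in WT replicates 1, 2 and 3, the 98.0th percentile. Top2a, which untangles DNA before mitosis, stood at 311, 309 and 310 FPKM, the 99.0th percentile.

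Among S genes the level ran from 9.69 ± 1.05 FPKM for Ccne2, a cyclin of S-phase entry, to 443 ± 6.17 for Pcna, the sliding clamp of the replicative polymerases (SD, n = 3 each). The 6 subunits of the MCM helicase, which the cell assembles in equal number, lay close together, from 102 ± 0.815 FPKM for Mcm2 to 155 ± 2.62 for Mcm5. Their loading factors were lower, with Cdt1 at 56.8 ± 1.26 and Cdc6 at 24.6 ± 0.109 FPKM. The genes of nucleotide supply were spread widely: Rrm2 and Rrm1, the subunits of ribonucleotide reductase, stood at 236 ± 5.47 and 146 ± 1.26, Dut, which removes dUTP, at 93.4 ± 2.33, thymidine kinase Tk1 at 72.6 ± 1.16 and thymidylate synthase Tyms at 18.2 ± 0.303 FPKM. The Tyms value rests on a length of 5937 bp in the deposited table, and the level per length moves with that length. The regulators E2f1 and Ccne1 stood at 16.6 ± 0.710 and 45.8 ± 0.741 FPKM.

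Among G2/M genes the level ran from 17.2 ± 0.524 FPKM for Cenpf, a kinetochore protein gene, to 360 ± 9.94 for Stmn1, which destabilises microtubules (SD, n = 3 each). The mitotic cyclins Ccnb2, Ccna2 and Ccnb1 stood at 128 ± 2.18, 110 ± 2.18 and 90 ± 1.19 FPKM, and their kinase Cdk1 at 43.6 ± 0.280. Ube2c, the ubiquitin-conjugating enzyme of the anaphase-promoting complex, stood at 220 ± 2.26 FPKM and its activator Cdc20 at 104 ± 3.06. The genes of mitotic kinases and of survivin, Birc5, lay lower, with Plk1 at 78.8 ± 2.2, Aurkb at 74.6 ± 1.96, Birc5 at 55.1 ± 0.241 and Aurka at 44.6 ± 1.64 FPKM. The checkpoint kinase gene Bub1b stood at 55.6 ± 0.76 FPKM and Bub1 at 31.6 ± 1.18. The spindle genes other than Stmn1 ran from 52.3 ± 2.06 FPKM for Kif20a, a kinesin of cytokinesis, to 84.1 ± 1 for Kif11, the kinesin that pushes spindle poles apart. The centromere genes were spread more widely: Cenpa, the centromeric histone H3 gene, stood at 113 ± 1.22 FPKM and Cenpe, a kinetochore motor, at 30.7 ± 0.0954.

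WT replicates differed little: the coefficient of variation of CPM had a median of 1.4% over S genes and 1.33% over G2/M genes, and it passed 5% in Ccne2 alone, at 11.1%.

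**Figure D2:**
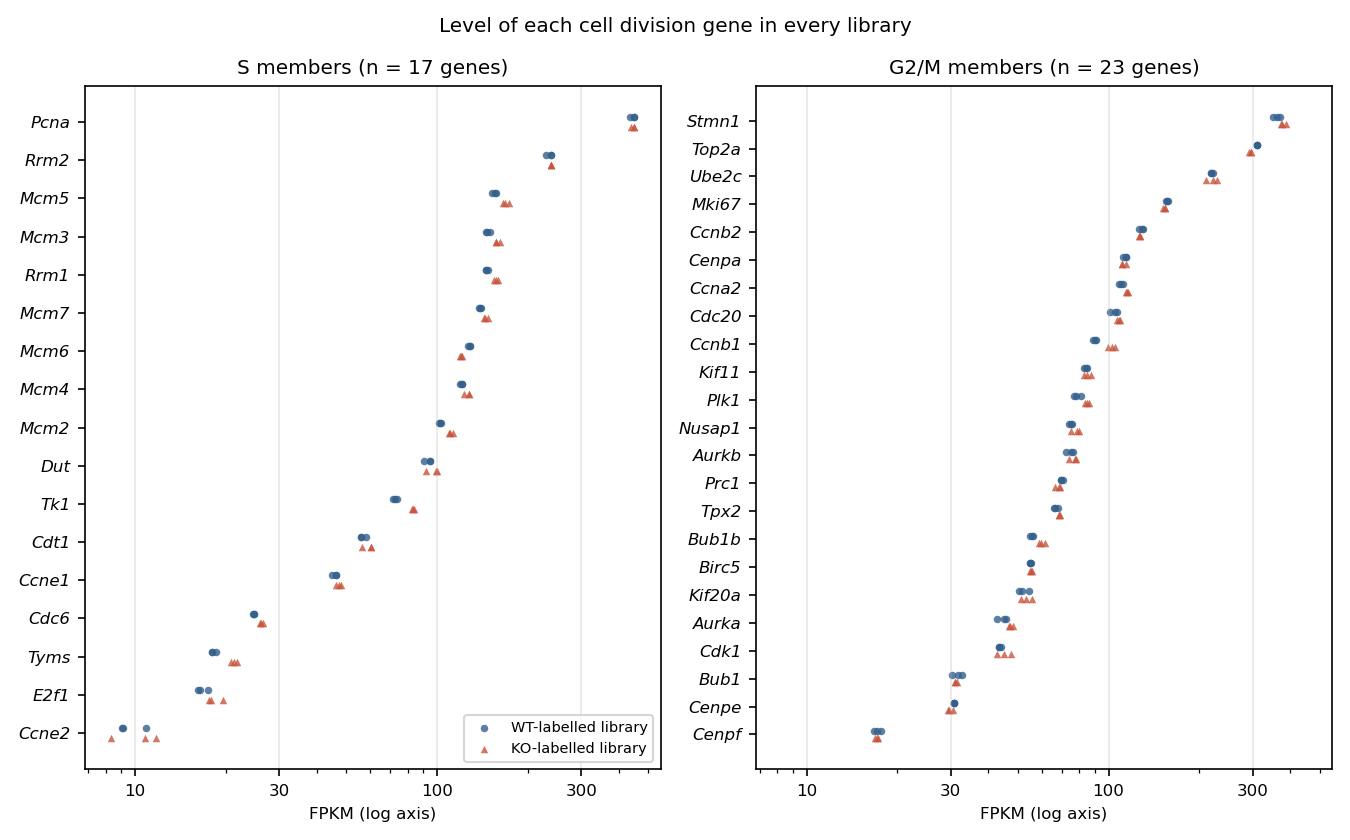
FPKM on a log axis of each S gene (left) and G2/M gene (right) in the 3 WT-labelled (circles) and 3 KO-labelled (triangles) libraries, with genes ordered by WT mean. Levels run from 9.69 FPKM in Ccne2 to 443 in Pcna, and the labels lie close together in every gene.

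In KO-labelled cells several replication genes were slightly higher, and most genes of both phases did not pass the test. Of the 17 S genes 6 rose (Tyms, Tk1, Mcm5, Mcm2, Mcm3 and Rrm1), 1 fell (Mcm6) and 10 did not pass. Of the 23 G2/M genes 3 rose (Ccnb1, Bub1b and Plk1), 1 fell (Top2a) and 19 did not pass. The changes were small, and the farthest was a rise of 16.5% in Tyms. Calls are from edgeR's quasi-likelihood test at a nominal false discovery rate of 0.05 (Benjamini-Hochberg adjusted p) across the 12810 genes. The S genes were called higher in 35.3% and the G2/M genes in 13%, beside a background of 7.23% of all genes tested. They were called lower in 5.88% and 4.35%, beside 10.1%. Among the 5357 genes with a WT FPKM at least that of Ccne2, 9.95% were called higher and 14.1% lower. That set starts at the lowest of the 40 genes, of which 33 lie at or above the 90th percentile, so it is not matched to their levels.

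**Figure D3:**
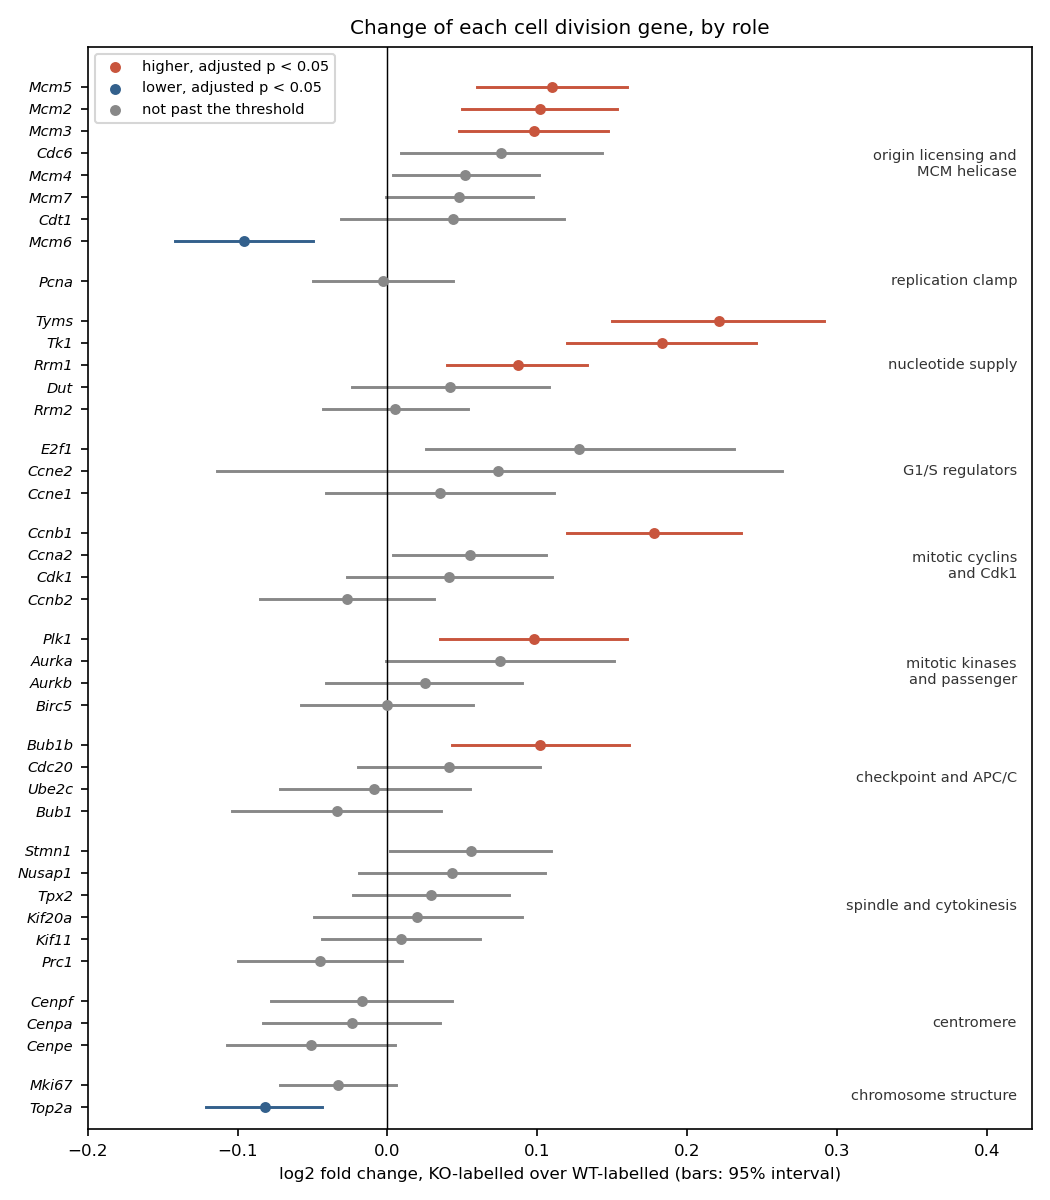
Log2 fold change of each of the 40 genes, KO-labelled over WT-labelled, with its 95% interval, grouped by role. Coloured points passed the test: 9 higher, led by Tyms at 0.22, and 2 lower, Mcm6 at -0.096 and Top2a at -0.082.

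Of the 8 genes of origin licensing and the MCM helicase, 3 rose (37.5%) and 1 fell (12.5%), beside 7.23% and 10.1% of all genes tested. Changes from here on are compared in CPM, which allows comparison between libraries but not between genes. Mcm5 stood at 524, 536 and 545 CPM in WT and 573, 566 and 592 in KO. All KO-labelled libraries lay above all WT-labelled ones, and the log2 fold change was 0.11 ± 0.0243 (SE; edgeR adjusted p = 0.00213). Mcm2, at 342, 348 and 347 CPM in WT and 367, 366 and 379 in KO, and Mcm3, at 444, 443 and 456 in WT and 472, 478 and 487 in KO, rose by 0.102 and 0.098 on the log2 scale (edgeR adjusted p = 0.00508 and 0.00514). Mcm6 moved the other way, from 566, 568 and 563 CPM to 527, 525 and 536, a log2 fold change of -0.096 ± 0.0221 (SE; edgeR adjusted p = 0.00324), with no overlap between labels. Mcm4 and Mcm7 did not pass, at 0.052 and 0.048, although their KO-labelled libraries lay above the WT-labelled ones (edgeR adjusted p = 0.141 and 0.184). The loading factors Cdc6 and Cdt1 did not pass either, at 0.076 and 0.044. Exons of Mcm7 overlap those of Cops6 and Ap4m1 on the opposite strand in the GENCODE M21 annotation, and the use of strand in counting is not given. Exons of Tk1, Ccne2, Ccna2, Cdc20, Ube2c, Kif20a, Nusap1 and Prc1 also overlap counted genes on the opposite strand. Pseudogene copies are annotated for Pcna, Tyms, Ccnb1 and Ccnb2. Reads could be shared in any of these genes.

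Nucleotide supply held the 2 S genes with the largest change. Tyms, which makes thymidylate, stood at 110, 107 and 107 CPM in WT and 128, 127 and 123 in KO, a rise of 0.22 ± 0.0338 on the log2 scale (SE; edgeR adjusted p = 4.09e-05). Tk1, which salvages thymidine, stood at 137, 139 and 135 CPM in WT and 155, 155 and 157 in KO, a rise of 0.18 ± 0.0305 (SE; edgeR adjusted p = 0.000114). The labels did not overlap in either gene. Afmid, whose exons overlap those of Tk1 on the opposite strand, had means of 30.7 (WT) and 32.2 CPM (KO) and missed the threshold (edgeR adjusted p = 0.539), and a processed copy of Tyms, Tyms-ps, is annotated, so reads could be shared. Rrm1, the large subunit of ribonucleotide reductase, stood at 582, 583 and 593 CPM in WT and 620, 615 and 632 in KO and rose by 0.087 (edgeR adjusted p = 0.00787). The small subunit Rrm2 stood at 521, 523 and 504 CPM in WT and 519, 518 and 517 in KO, and its labels overlapped. Its 95% interval ran from -0.043 to 0.054, and that of Dut from -0.024 to 0.11.

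Pcna and the regulators of S-phase entry did not pass the test. Pcna stood at 564, 552 and 566 CPM in WT and 560, 553 and 565 in KO, with a 95% interval of the log2 fold change from -0.05 to 0.044. E2f1, a transcription factor of S-phase genes, stood at 50.7, 54.2 and 50.2 CPM in WT and 54.3, 55.2 and 60.1 in KO. Its KO-labelled libraries lay above the WT-labelled ones, but the difference of 0.13 ± 0.0494 (SE) missed the threshold (edgeR adjusted p = 0.0805). Ccne2 was the least even gene of the 40, at 29.5, 29.8 and 35.7 CPM in WT and 35, 38 and 27 in KO. Its interval, from -0.11 to 0.26, was the widest, and without KO replicate 3, its lowest library, Ccne2 passed as higher (log2 fold change 0.205, edgeR adjusted p = 0.0296). Ccne1, the other cyclin E gene, was at 0.035.

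Of the 4 mitotic cyclin and Cdk1 genes and the 4 genes of mitotic kinases and their passenger Birc5, 1 each passed the test. That was 25% of each group, beside 17.3% of all genes tested, and with so few genes a count of 1 is near that share. Ccnb1, which encodes cyclin B1, stood at 211, 209 and 207 CPM in WT and 242, 238 and 230 in KO, a rise of 0.18 ± 0.0281 on the log2 scale (SE; edgeR adjusted p = 5.85e-05) with no overlap. Its paralog Ccnb2 stood at 199, 194 and 201 CPM in WT and 194, 194 and 195 in KO and did not pass (-0.027), and Cdk1 did not pass at 0.041. The copy Ccnb1-ps, which could share reads, held 69 to 97 counts in WT and 74 to 81 in KO, beside at least 7280 for Ccnb1. Plk1, a kinase of mitotic entry, stood at 173, 181 and 172 CPM in WT and 189, 185 and 187 in KO and rose by 0.098 ± 0.0299 (SE; edgeR adjusted p = 0.0254). Leaving out any of WT1, WT3 and KO1 ended the Plk1 call (edgeR adjusted p = 0.102 to 0.115). The Aurora kinase genes Aurka and Aurkb did not pass, at 0.075 and 0.025, and Birc5, the survivin gene of the same complex as Aurora B, had a 95% interval from -0.058 to 0.057. Ccna2, cyclin A2, was at 0.055 (edgeR adjusted p = 0.141).

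Of the 4 genes of the spindle checkpoint and the anaphase-promoting complex, 1 passed the test (25%), beside 17.3% of all genes tested. With so few genes a count of 1 is near that share. Bub1b, which encodes BubR1, stood at 207, 202 and 206 CPM in WT and 216, 220 and 226 in KO and rose by 0.102 ± 0.0283 (SE; edgeR adjusted p = 0.0135), a call lost without WT replicate 2 (edgeR adjusted p = 0.0667). Bub1 stood at 142, 133 and 139 CPM in WT and 134, 137 and 134 in KO and did not pass, at -0.034; the difference between Bub1b and Bub1 was not tested. Cdc20 and Ube2c, which drive the exit from mitosis, were at 0.041 and -0.009 and did not pass.

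No gene of the spindle, of cytokinesis or of the centromere passed the test, with 0 of 6 and 0 of 3 called by edgeR, beside 17.3% of all genes tested; with so few genes a count of 0 is near that share. At an unadjusted p under 0.05 the counts were 1 (Stmn1, at 0.056) and 0, and none of the 9 passed in any of 18 alternatives, DESeq2 included. The values of Tpx2, Kif11, Kif20a, Nusap1 and Prc1, which build or bundle spindle microtubules, ran from -0.045 for Prc1 to 0.043 for Nusap1. Prc1, which bundles the microtubules of the midzone, stood at 252, 250 and 251 CPM in WT and 245, 239 and 248 in KO, and its KO-labelled libraries all lay below the WT-labelled ones, although the difference missed the threshold (edgeR adjusted p = 0.281). Kif11 overlapped, at 409, 403 and 414 CPM in WT and 409, 424 and 400 in KO. The centromere genes Cenpa, Cenpe and Cenpf were at -0.024, -0.051 and -0.017. Cenpe stood at 241 CPM in each WT-labelled library and at 238, 231 and 229 in KO, again without overlap and without passing (edgeR adjusted p = 0.22). The intervals of the 19 G2/M genes that did not pass lay between -0.11 (Cenpe) and 0.15 (Aurka), and a larger change lay outside all of them.

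Top2a and Mki67, the most counted genes of the 40, were lower in every KO-labelled library than in any WT-labelled one. Top2a stood at 1629, 1627 and 1637 CPM in WT and 1546, 1553 and 1522 in KO, and its log2 fold change was -0.082 ± 0.0187 (SE; edgeR adjusted p = 0.00279). Mki67 stood at 1597, 1616 and 1596 CPM in WT and 1548, 1581 and 1571 in KO, and its change of -0.033 ± 0.0188 (SE) did not pass (edgeR adjusted p = 0.261).

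Ratios of counts between related genes within a library do not depend on scaling. The 7 pairs were chosen after their values were seen, so whether the labels overlap restates the values of the genes and is a description. Mcm6 over Mcm5 was 1.08, 1.06 and 1.03 in WT and 0.919, 0.928 and 0.905 in KO. Ccnb1 over Ccnb2 was 1.06, 1.08 and 1.03 in WT and 1.24, 1.23 and 1.18 in KO. Tyms over Pcna was 0.195, 0.195 and 0.189 in WT and 0.229, 0.229 and 0.218 in KO. These 3 ratios did not overlap between labels, and neither did Rrm1 over Rrm2 (mean 1.14 in WT, 1.2 in KO) and Top2a over Mki67 (1.02 and 0.983). Mcm4 over Mcm7 (1.08 in both) and Plk1 over Aurkb (1.07 and 1.13) overlapped.

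Counts were also summed over the genes of each phase. The S sum was 5277, 5288 and 5304 CPM in WT and 5447, 5443 and 5555 in KO, a mean 3.63% higher. The G2/M sum was 7969, 7918 and 7931 CPM in WT and 7895, 7912 and 7903 in KO, a mean difference of -0.455%. The S over G2/M ratio was 0.662 to 0.669 in WT and 0.688 to 0.703 in KO, with no overlap. Top2a and Mki67 made up 39.1% to 41.0% of the G2/M sum. Without them that sum was 4675 to 4742 CPM in WT and 4778 to 4810 in KO, and the ratio was 1.11 to 1.13 in WT and 1.13 to 1.15 in KO, so the lower G2/M sum rested on these 2 genes. By gene, the median log2 fold change was 0.074 over S and 0.02 over G2/M genes, beside 0.001 over all tested genes, and 15 of 17 S and 13 of 23 G2/M genes were above 0, beside 50.4% of all. KO-labelled libraries lay wholly above WT-labelled ones in 10 of 17 S genes (58.8%) and 6 of 23 G2/M genes (26.1%), beside 15.5% of all genes tested, and wholly below in 1 of 17 (5.88%) and 4 of 23 (17.4%), beside 16.7%. The G2/M median ran from 0.004 without KO replicate 3 to 0.041 without WT replicate 1, and was 0.009 without the 5 genes of shared phase. The difference between the phases was not tested.

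**Figure D4:**
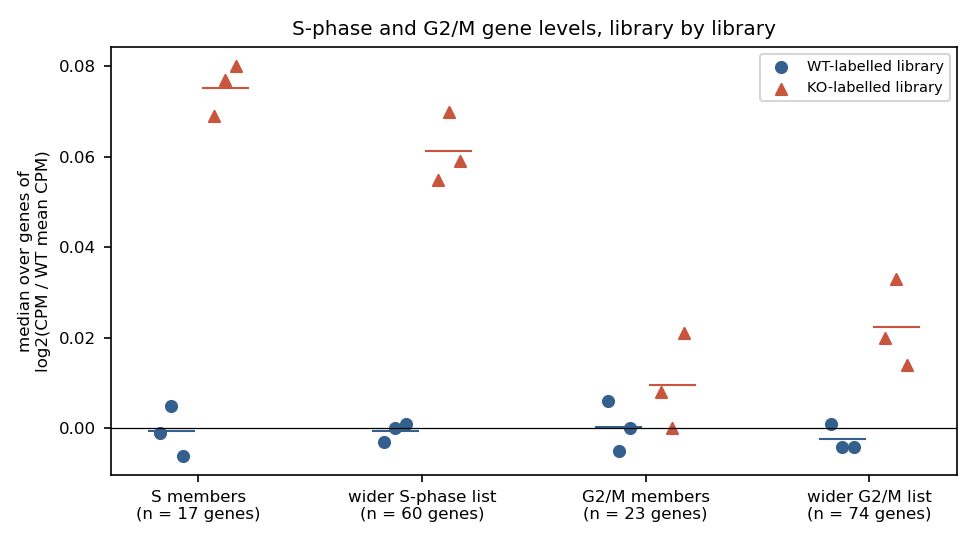
Median over the genes of a list of log2 CPM relative to the WT mean, for each WT-labelled (circles) and KO-labelled (triangles) library, with lines at group means. The KO-labelled libraries lie at 0.069 to 0.080 for the S members and at 0.000 to 0.021 for the G2/M members.

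Further genes of each phase, from lists that leave out the 40, were counted in the same fit. The lists were chosen with earlier results of these data known, so their shares are a description and not an independent check. Of all genes tested 7.23% rose and 10.1% fell. Of 60 other S-phase genes 14 rose (23.3%) and 0 fell by edgeR, with 23 higher and 0 lower at an unadjusted p under 0.05, and DESeq2 gave the same counts of 14 and 0. Their median log2 fold change was 0.059. By smallest p, Shmt1, a folate enzyme that feeds thymidylate synthesis, rose by 0.18, Dtl, which targets the licensing factor CDT1 for destruction in S phase, by 0.155, Orc2, an origin recognition subunit, by 0.185, and Dnmt1, the maintenance DNA methyltransferase, by 0.091 (edgeR adjusted p = 0.00183 to 0.00553). The count fell to 8 without WT replicate 1 and to 9 without WT replicate 2. Of 74 other G2/M genes 3 rose (4.05%) and 4 fell (5.41%), both shares below those of all genes. Their median was 0.03, and 11 of the 16 genes at an unadjusted p under 0.05 were higher. The change was above 0 in 48 of the 74 (64.9%), beside 50.4% of all genes tested. KO-labelled libraries lay wholly above WT-labelled ones in 24.3% of the list, beside 15.5% of all, and wholly below in 9.46%, beside 16.7%. By upper-quartile or total-count scaling 4 rose and 3 fell. Cdca2 and Cdca8, the latter a subunit of the Aurora B complex, rose by 0.17 and 0.11, and Pbk, a mitotic kinase, and Kif23, a kinesin of cytokinesis, fell to log2 fold changes of -0.185 and -0.12 (edgeR adjusted p = 0.00152 to 0.0106). That count fell from 7 to 4 without KO replicate 1.

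**Figure D5:**
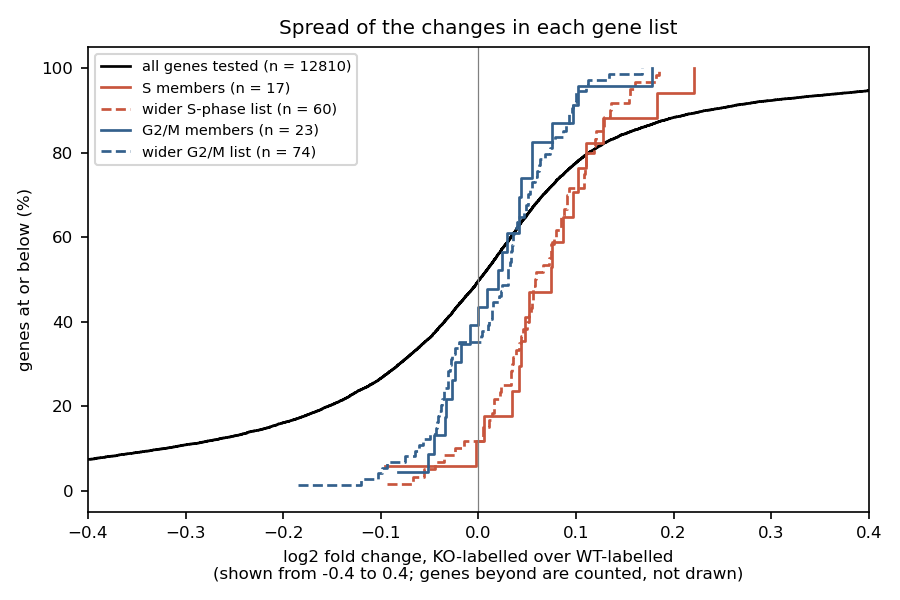
Cumulative percent of genes at or below each log2 fold change, for S and G2/M members (solid), the wider lists (dashed) and all tested genes (black), drawn from -0.4 to 0.4. At their medians the S curves lie to the right of the G2/M curves, at 0.074 and 0.059 against 0.02 and 0.03. At the low end the member curves cross, with Mcm6 (S) at -0.096 and Top2a (G2/M) at -0.082.

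Of 17 genes of the E2F, pocket protein and MuvB families, which control both programmes, 2 rose (11.8%) and 2 fell (11.8%), beside 7.23% and 10.1% of all genes tested, with a median of 0.004. On log2(FPKM + 1) with no filter 2 of them were called, 1 in each direction. Tfdp1, the dimer partner of E2F proteins, rose by 0.15 and Rbbp4, a MuvB subunit found also in other chromatin complexes, by 0.11, while E2f2, an activator E2F, fell to -0.14 and the retinoblastoma gene Rb1 to -0.16 (edgeR adjusted p = 0.00111 to 0.0192).

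Other cells that could divide in the spleen were counted by their markers. The 5 erythroid markers with a row summed to 0.115 to 0.370 CPM in WT and 0.199 to 1.04 in KO, and the 6 neutrophil and myeloid progenitor markers to at most 0.228 CPM in any library. The 9 B cell markers summed to 6.74 to 7.16 CPM in WT and 5.92 to 7.82 in KO, with Pax5 at 0.161 CPM in WT, and 5 plasma cell markers to 15.7 to 18.1 in WT and 12.5 to 14.5 in KO, most of it Prdm1, which T cells also express. The 8 monocyte and macrophage markers with a row summed to 7.28 to 9.92 CPM in WT and 6.03 to 6.71 in KO. Among them Cd68 fell by 25.8% (edgeR adjusted p = 0.0179). The 3 dendritic cell markers with a row summed to 0.683 to 1.38 CPM in WT and 1.45 to 1.91 in KO. The 3 NK cell markers summed to 651 to 673 CPM in WT and 648 to 680 in KO, most of it Nkg7. Among them Ncr1 fell by 47.6%, from 1.85 to 0.965 CPM (edgeR adjusted p = 0.0398). Of 6 listed αβ T cell markers 3 (Trac, Trbc1 and Trbc2) were not analysed here, so αβ T cells were not checked by their defining genes. Of the other 3, Cd8a rose (log2 fold change 0.40, edgeR adjusted p = 7.51e-08), while Cd8b1 had means of 18.1 (WT) and 17.8 CPM (KO) and Cd4 of 0.522 and 0.463 (edgeR adjusted p = 0.884 and 0.851). The sum of these 3 was 84.2 to 85 CPM in WT and 103 to 107 in KO, and that of 8 general T cell genes was 2476 to 2515 in WT and 2339 to 2422 in KO, with 4 of 8 lower. Of the 4 γδ T cell markers with a row, Blk fell from a mean of 3.1 to 1.39 CPM and Scart1 rose from 7.48 to 10.5 CPM (edgeR adjusted p = 0.00133 and 0.00297), changes of -55% and 39.8% that were larger than that of any of the 40 genes. Sox13 and Zbtb16 missed the threshold (edgeR adjusted p = 0.102 and 0.0997). The part of these markers in the changes of the division genes was not tested.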

How the data were processed

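Total RNA of sorted splenic γδ T cells was isolated by TRIzol before library preparation (VAHTS Universal V6), per the labels' protocols. The submitters' processing notes name fastp, HISAT2, HTSeq and the build GRCm39; their versions, the annotation and the strand setting were not stated there. The deposited gene counts are whole numbers per gene symbol. The deposited FPKM values equal these counts over the library total and 1 length per gene, in all 17510 genes that could be checked, within 0.01 bp.

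The test was edgeR's quasi-likelihood fit (version 4.0.16, R 4.3.3) on counts after TMM scaling and filterByExpr, with the label as the only term and Benjamini-Hochberg adjustment. The filter left out 0.0366% of counts. The biological coefficient of variation was 4.16%. Standard errors (|log2 fold change| / √F) and 95% intervals come from that fit. No libraries were merged, since same-label pairs gave a chi-square per degree of freedom of 3.26 to 7.19. Alternatives tried were DESeq2 1.42.0, scaling by RLE, upper quartile or total count, limma 3.58.1 by voom or by trend on log2(FPKM + 0.1) and log2(FPKM + 1), other filters, a robust fit, the replicate number as a block and each library left out. On simulated counts of 12810 genes for KO against WT with 200 changed, over 12 draws, 50.3% of 1.2-fold, 73.3% of 1.5-fold and 85.2% of 2-fold changes were recovered, with 3.72% of calls false on average when the spread followed edgeR's trend and 8.82% when each gene kept its own estimated spread, above the nominal level.

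All 40 genes, up to 4 per wider list by smallest p (at least 2), and Usf3 are named by rule; others were chosen after their values were seen. The members and lists were chosen with earlier results of these data known.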

Additional observations from a re-analysis of the deposited data

How the results depend on the processing

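The 7 calls among S genes were 7 or 8 under every alternative tried, and the 4 among G2/M genes were 3 or 4. The median log2 fold change of S genes, 0.074, was 0.085 by upper-quartile and 0.084 by total-count scaling, 0.067 by limma-voom, 0.068 on log2(FPKM + 1) with and without a filter and 0.068 with the replicate block, 0.064 without the 5 genes of shared phase (Ccna2, Ccne1, Ccne2, E2f1 and Stmn1) and 0.055 to 0.077 with 1 library left out. That of G2/M genes, 0.020, was 0.031 by upper-quartile scaling, 0.009 without the genes of shared phase and 0.004 to 0.041 with 1 library left out. On log2(FPKM + 1) with no filter on low values, calls fell to 8 of the wider S-phase list, 4 of the wider G2/M list, 2 of the E2F, pocket protein and MuvB list and 1293 of all genes (from 14, 7, 4 and 2219). With 1 library left out the wider S-phase list had 8 to 16 calls and the wider G2/M list 4 to 9. Of the 11 called members, Plk1 lost its call in 4 of 18 alternatives and Bub1b in 1, and the other 9 kept theirs in all 18. Cdc6 passed on log2(FPKM + 1) with no filter (limma adjusted p = 0.0353). In the 100 bases before the start, E2F motifs stood in 6.67% of S and 0% of G2/M windows and CHR motifs in 38.9% of G2/M windows. Same-numbered libraries did not deviate together (correlations 0.0554, -0.0217 and -0.0389), so the replicate block pairs numbers only; it gave 1969 calls over all genes and changed no call among the 40. Each of the 40 genes had at least 939 counts per library, and 3 libraries per label limit the precision.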
